A study of Homo sapiens with 12 samples.

Results

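Hypoxia and glycolysis genes were followed as 40 transcripts, named by symbol, out of 56832 genes measured by RNA-seq in the human prostate cancer line DU145. They comprised 17 glycolytic enzymes, 3 carriers of glucose or lactate, 4 regulators of glycolytic and pyruvate flux, 2 hypoxia-inducible factor (HIF) alpha subunits and 14 HIF target genes. The tested lines were 3 clones with the genotype RAC1_KO: sgRAC1 clone 1, made with guide sgRAC1_1, and sgRAC1 clones 2 and 3, both made with guide sgRAC1_2. They were set against 3 lines with the genotype WT: the parental cells and 2 clones carrying the non-targeting guide sgNTC_1 (sgNTC clones 1 and 2). Each line gave 2 biological replicates, 1 per batch, so 12 libraries in all, and every line grew in RPMI medium with 10% serum with no hypoxic or drug treatment in the labels. Clones were grown from single cells after transfection with guide and Cas9, so each knockout line is 1 clone, and clonal differences cannot be told apart from those of the guide within a line. RAC1 encodes a small GTPase that switches actin dynamics and NADPH oxidase activity.

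HIF is a dimer of an oxygen-regulated alpha subunit (HIF-1α from HIF1A, HIF-2α from EPAS1) with the constant partner ARNT. In oxygen, EGLN hydroxylases mark the alpha subunit for VHL-dependent destruction, so HIF activity is set largely at the protein level, which transcripts do not show. HIF-1 binds a short core sequence near glycolytic genes and raises their transcription. Many cancer cells run glycolysis strongly in oxygen as well, and lactate dehydrogenase then recycles pyruvate to lactate.

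In TPM (the length-corrected share of a transcript in its library), both HIF alpha transcripts and most glycolytic enzymes had higher means in the knockout clones. The largest log2 difference among the 34 genes above the level filter was that of EPAS1, at 2.76 times the RAC1-positive mean. Among the enzymes, LDHA, PGK1, ENO2 and LDHB were higher in all 6 knockout libraries than in any RAC1-positive library, as was EPAS1, which makes 5 of 34 genes beside 2.14% of all genes. All 3 knockout line means lay above all 3 RAC1-positive ones for 15 of the 34, beside 12% of all genes, and below them for the platelet phosphofructokinase PFKP and the flux regulator PFKFB3, beside 8.52%. None of the 34 passed the adjusted threshold when lines were the unit of replication (0.00576% of all genes did), and 4 did when the libraries were (2.12% of all genes). With the replicate number as a block 3 did (1.84% of all genes), since ENO2 no longer passed.

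Promoter sequences are shown for the 4 genes called over all 12 libraries and for HIF1A, since HIF is known to bind this core motif. Each window runs from 250 bases before the RefSeq start to 50 after it (RefSeq, GRCh38.p14; this start can differ from that of the GENCODE gene), 5′ to 3′ on the plus strand, at chr2:46297157-46297456 for EPAS1, chr14:61695263-61695562 for HIF1A, chr11:18394313-18394612 for LDHA, chrX:78103998-78104297 for PGK1 and chr12:6914330-6914629 for ENO2. Capitals mark the core motif ACGTG or GCGTG, searched on both strands, where the reverse strand reads CACGT or CACGC and the palindrome CACGTG counts on both.
EPAS1: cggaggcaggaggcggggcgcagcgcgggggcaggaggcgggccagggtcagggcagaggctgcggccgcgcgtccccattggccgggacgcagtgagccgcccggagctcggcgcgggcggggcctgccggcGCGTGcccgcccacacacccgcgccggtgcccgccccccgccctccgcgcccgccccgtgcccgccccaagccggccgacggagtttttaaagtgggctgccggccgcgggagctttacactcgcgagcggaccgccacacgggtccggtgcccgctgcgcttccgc
HIF1A: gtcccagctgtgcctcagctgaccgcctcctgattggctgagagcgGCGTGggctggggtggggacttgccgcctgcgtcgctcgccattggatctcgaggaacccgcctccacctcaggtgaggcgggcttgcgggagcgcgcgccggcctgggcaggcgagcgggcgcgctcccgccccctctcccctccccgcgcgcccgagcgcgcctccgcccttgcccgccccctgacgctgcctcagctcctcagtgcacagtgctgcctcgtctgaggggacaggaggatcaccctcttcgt
LDHA: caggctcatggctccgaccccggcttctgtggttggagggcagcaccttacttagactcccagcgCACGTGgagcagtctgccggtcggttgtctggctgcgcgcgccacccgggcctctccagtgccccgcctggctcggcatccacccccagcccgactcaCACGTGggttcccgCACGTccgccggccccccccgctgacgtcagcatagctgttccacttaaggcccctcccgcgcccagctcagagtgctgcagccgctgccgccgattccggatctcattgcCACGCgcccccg
PGK1: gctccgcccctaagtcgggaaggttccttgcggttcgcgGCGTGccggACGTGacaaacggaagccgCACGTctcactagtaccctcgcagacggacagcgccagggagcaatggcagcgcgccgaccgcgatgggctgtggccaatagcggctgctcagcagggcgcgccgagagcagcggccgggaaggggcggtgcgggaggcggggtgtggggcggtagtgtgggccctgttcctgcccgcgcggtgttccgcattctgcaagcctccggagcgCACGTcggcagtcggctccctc
ENO2: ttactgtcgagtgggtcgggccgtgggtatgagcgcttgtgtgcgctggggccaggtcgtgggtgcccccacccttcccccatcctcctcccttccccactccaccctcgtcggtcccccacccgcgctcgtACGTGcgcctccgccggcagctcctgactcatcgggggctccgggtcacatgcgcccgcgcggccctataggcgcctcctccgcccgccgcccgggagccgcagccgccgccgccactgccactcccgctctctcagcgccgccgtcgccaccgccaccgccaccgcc

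LDHA carried 6 matches in the window shown and PGK1 carried 4, while ENO2, HIF1A and EPAS1 carried 1 each. Such counts were not particular to genes higher in knockout. In windows not shown, BNIP3 carried 6 matches, HK2 carried 6 in 1 window and 3 in another, and DDIT4 carried 4. The line means of these genes overlapped between genotypes (log2(TPM + 1) differences of -0.12, -0.05 and -0.31). A second RefSeq start gave another window, not shown, for LDHA, with 1 match and 0 of ACGTG, and for HIF1A, with 0 matches. P4HA2, called in the fits made here only when 1 library was left out, had 0 matches in its window, which is not shown. The LDHA matches included 2 copies of CACGTG, which start 185 and 87 bases before the start site on the upper strand, and PGK1 had 3 of its matches between 211 and 183 bases before the start. A window was found for 36 of the 40 genes, giving 66 windows, of which 68.2% held at least 1 core match, against 48.4% of all 35116 windows. ACGTG alone was in 39.4% of the members' windows and in 21.4% of all windows. The members' windows were also richer in G and C, with a median of 69.0% against 58.7% for all windows, and this motif contains G and C, so the 2 shares are not matched for composition. The list was made up of known HIF targets and glycolytic genes, so a higher share of this core is partly built into it. Some genes, such as HK1 and PFKM, gave several overlapping windows, so the 66 windows are not separate promoters.

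The targeted transcript was measured first. RAC1 had 47.5 and 36.5 TPM in sgRAC1 clone 1, 59.2 and 54.2 in clone 2, 39.6 and 40.3 in clone 3, 171 and 170 in the parental cells, 188 and 149 in sgNTC clone 1, and 202 and 152 in sgNTC clone 2. No knockout library overlapped a RAC1-positive one. Line means were 46.2 ± 9.14 TPM in knockout lines and 172 ± 4.6 in RAC1-positive lines (SD, 3 lines of each genotype). By a two-sided exact permutation of the 6 lines the p was 0.1, the lowest that 3 against 3 allows. Over the 17367 genes kept, those whose mean reached 1 TPM in 1 genotype or both, RAC1 was the 1 gene called by limma at line level (adjusted p = 0.0467, and 2.25e-05 to 0.307 over the alternatives tried). TPM keeps no depth, so the depth of each library is unknown. One library stood apart: sgNTC clone 2 replicate 1 had 13608 genes above 0, against 20470 to 25156 in the others, and its median correlation with the other libraries was 0.872, against 0.936 to 0.954. Mitochondrial transcripts made up 11.8 to 13.7% of TPM in the knockout libraries and 10.3 to 13.2% in the RAC1-positive ones. Summed epithelial markers lay at 372 to 752 TPM in knockout and 273 to 802 TPM in RAC1-positive libraries, but the 5 markers did not go one way. CDH1 averaged 13.5 ± 4.13 TPM in knockout and 3.98 ± 1.51 TPM in RAC1-positive lines, EPCAM 43.8 ± 6.72 and 24.2 ± 2.1 TPM, KRT19 100 ± 12.8 and 74.4 ± 25.3 TPM, KRT8 238 ± 64.1 and 201 ± 35.8 TPM, and KRT18 129 ± 54.3 and 236 ± 124 TPM (SD, n = 3 lines each). CDH1 libraries did not overlap between genotypes, and CDH1 and EPCAM were called over libraries (limma adjusted p = 0.0117 and 0.0184) and not over lines (0.156 and 0.15). The part of these epithelial markers in the differences reported here was not tested. The luminal prostate markers KLK3 and TMPRSS2, the basal marker KRT5, the leukocyte markers PTPRC and CD3E and the endothelial marker VWF were at 0 in all 12 libraries. Fibroblast markers summed to at most 0.751 TPM, and basal or neuroendocrine, leukocyte and endothelial sets to less than 1 TPM each. In bulk RNA, fewer cells with a transcript and less of it per cell cannot be told apart.

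EPAS1 (chromosome 2, 46293667 to 46386703, plus strand, GENCODE release 29 on GRCh38), which encodes HIF-2α, had 9.12 and 8.31 TPM in sgRAC1 clone 1, 9.25 and 9.40 in clone 2 and 13.1 and 9.06 in clone 3. Parental cells had 3.36 and 3.63 TPM, sgNTC clone 1 had 2.06 and 3.07 and sgNTC clone 2 had 4.20 and 4.79. The lowest knockout library exceeded the highest RAC1-positive library, and clone 3 replicate 1 was the highest of all. The line means were 9.71 ± 1.23 TPM in knockout and 3.52 ± 0.966 TPM in RAC1-positive lines (SD, n = 3 lines each), a log2(TPM + 1) difference of 1.26 ± 0.20 (SE). With lines as the unit the limma adjusted p was 0.143, and with the 12 libraries as the unit and line as a random block it was 0.0032 (0.00823 with the replicate number as a block as well). The difference was 1.05 in batch 2 and 1.47 in batch 1.

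HIF1A (chromosome 14, 61695513 to 61748259, plus strand), which encodes HIF-1α, was the more abundant of the 2 subunits by far. It had 904 and 831 TPM in sgRAC1 clone 1, 675 and 644 in clone 2 and 486 and 877 in clone 3. Parental cells had 369 and 583 TPM, sgNTC clone 1 had 430 and 402 and sgNTC clone 2 had 593 and 376. All 3 knockout line means lay above all 3 RAC1-positive ones, but the libraries overlapped, because clone 3 replicate 1 lay below parental replicate 2 and sgNTC clone 2 replicate 1. The line means were 736 ± 114 and 459 ± 37.2 TPM in knockout and RAC1-positive lines (SD, n = 3 each), a log2(TPM + 1) difference of 0.68 ± 0.12 (limma adjusted p = 0.15 over lines, 0.0594 over libraries with line as a random block). It was 0.80 in batch 2 and 0.55 in batch 1. EPAS1 made up 1.40 ± 0.415% of the summed EPAS1 and HIF1A TPM in knockout lines and 0.786 ± 0.184% in RAC1-positive lines (SD, n = 3 lines each), and the libraries overlapped (0.990 to 2.63% against 0.477 to 1.26%).

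**Figure D1:**
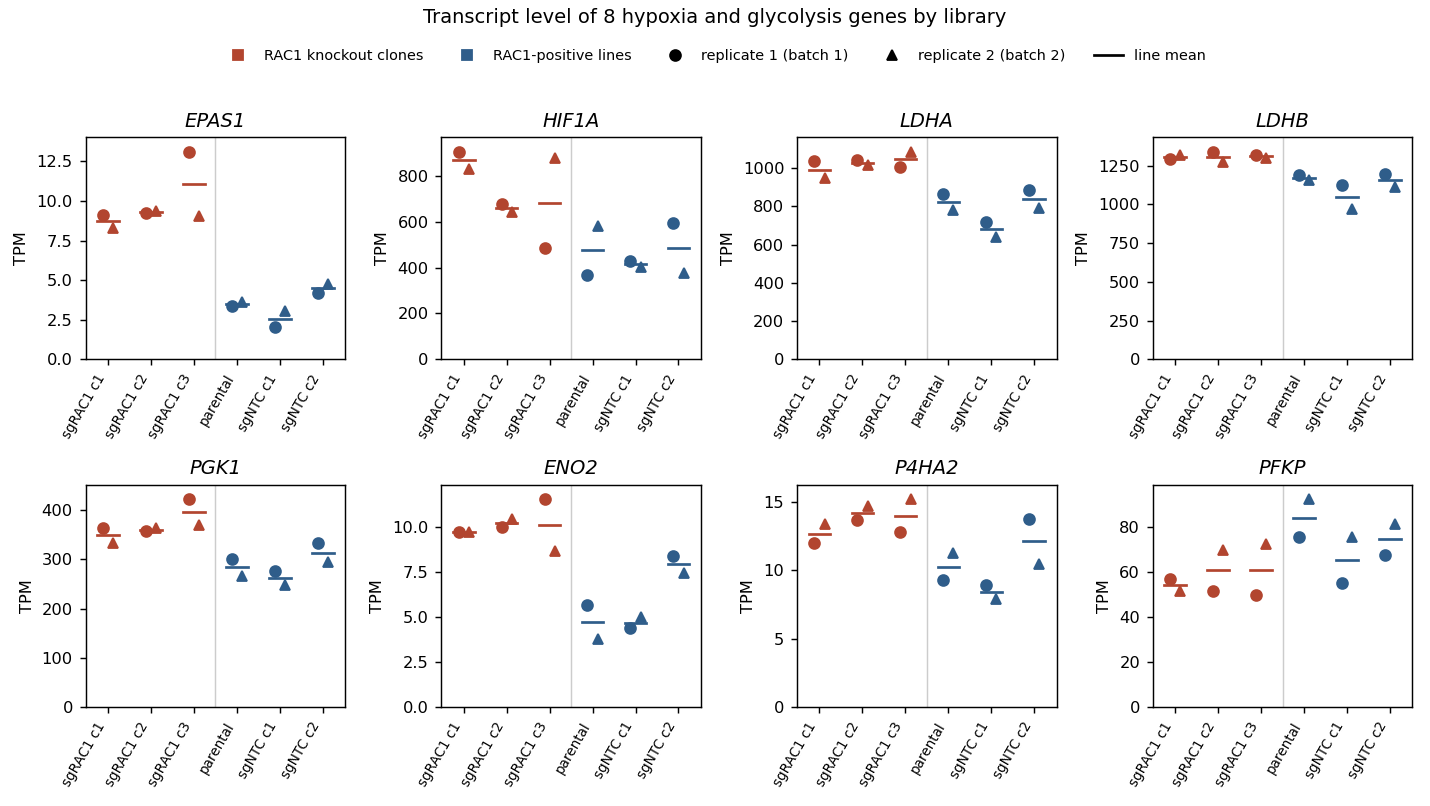
Level in TPM (linear vertical axes starting at 0) of EPAS1, HIF1A, LDHA, LDHB, PGK1, ENO2, P4HA2 and PFKP in each of 12 libraries, with knockout clones in red on the left and RAC1-positive lines in blue on the right, circles for replicate 1 (batch 1), triangles for replicate 2 (batch 2) and bars for line means. EPAS1, LDHA, LDHB, PGK1 and ENO2 have every knockout library above every RAC1-positive one, HIF1A and P4HA2 overlap between libraries, and PFKP has lower line means in the knockout clones.

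Of the 17 glycolytic enzymes, 16 passed the level filter, which ALDOC (the brain-type aldolase, below 1 TPM in all 12 libraries) did not. The median log2(TPM + 1) difference of the 16 was 0.21, with 13 higher and 3 lower in knockout lines, beside a median of 0.02 over all 17367 genes and 53.3% of all genes higher. The 17 enzymes summed to 9367 ± 456 TPM in knockout and 8247 ± 412 TPM in RAC1-positive lines (SD, n = 3 lines each). Library sums ran from 8712 to 10081 TPM in knockout clones and from 7753 to 9367 TPM in RAC1-positive lines, where the parental replicate 1 was the highest and overlapped.

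LDHA (chromosome 11, 18394388 to 18408425, plus strand), the muscle-type subunit of lactate dehydrogenase, had 1036 and 947 TPM in sgRAC1 clone 1, 1040 and 1014 in clone 2 and 1006 and 1084 in clone 3. Parental cells had 862 and 780 TPM, sgNTC clone 1 had 720 and 642 and sgNTC clone 2 had 884 and 792. All 6 knockout libraries lay above all 6 RAC1-positive ones. The line means were 1021 ± 27 and 780 ± 86.1 TPM in knockout and RAC1-positive lines (SD, n = 3 each), a log2(TPM + 1) difference of 0.40 ± 0.09 (limma adjusted p = 0.198 over lines, 0.019 over libraries with line as a random block, 0.0253 with the replicate block as well). It held in each batch, at 0.46 in batch 2 and 0.33 in batch 1.

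LDHB, the heart-type subunit, whose tetramer favours the reverse reaction, had 1295 and 1321 TPM in sgRAC1 clone 1, 1338 and 1274 in clone 2 and 1319 and 1299 in clone 3. Parental cells had 1191 and 1155 TPM, sgNTC clone 1 had 1127 and 971 and sgNTC clone 2 had 1197 and 1112. The knockout libraries again lay above the RAC1-positive ones. The log2(TPM + 1) difference was 0.22 ± 0.07 (limma adjusted p = 0.264 over lines and 0.0633 over libraries with line as a random block). In the annotation 33.4% of LDHB exon bases also belong to another protein-coding gene on the same strand, AC010197.2, so reads there may be shared. LDHA made up 43.8 ± 0.653% of the summed LDHA and LDHB TPM in knockout lines and 40.9 ± 1.35% in RAC1-positive lines (SD, n = 3 lines each), with single libraries at 41.8 to 45.5% against 39.0 to 42.5%.

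PGK1 (chromosome X, 77910739 to 78129296, plus strand), phosphoglycerate kinase, which makes ATP in the lower part of glycolysis, had 364 and 334 TPM in sgRAC1 clone 1, 358 and 363 in clone 2 and 422 and 371 in clone 3. Parental cells had 301 and 267 TPM, sgNTC clone 1 had 277 and 248 and sgNTC clone 2 had 333 and 294. The groups did not overlap, though clone 1 replicate 2 and sgNTC clone 2 replicate 1 differed by 1 TPM. The line means were 368 ± 24.7 and 287 ± 25.6 TPM in knockout and RAC1-positive lines (SD, n = 3 each), a log2(TPM + 1) difference of 0.36 ± 0.09 (limma adjusted p = 0.219 over lines, 0.0336 over libraries with line as a random block, 0.0308 with the replicate block as well). Batch 2 gave 0.40 and batch 1 gave 0.33.

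ENO2 (chromosome 12, 6913745 to 6923698, plus strand), the gamma enolase known from neurons, had 9.70 and 9.68 TPM in sgRAC1 clone 1, 10.0 and 10.4 in clone 2 and 11.5 and 8.62 in clone 3. Parental cells had 5.66 and 3.77 TPM, sgNTC clone 1 had 4.36 and 4.98 and sgNTC clone 2 had 8.36 and 7.43. The libraries did not overlap, and sgNTC clone 2 lay between the knockout clones and the other RAC1-positive lines. The line means were 9.97 ± 0.258 and 5.76 ± 1.85 TPM in knockout and RAC1-positive lines (SD, n = 3 each), a log2(TPM + 1) difference of 0.74 ± 0.21 (limma adjusted p = 0.241 over lines and 0.0387 over libraries with line as a random block). With the replicate block as well, the adjusted p was 0.0504, which did not pass. ENO1, the common enolase, made up nearly all enolase transcript, with ENO2 at 0.599 ± 0.0374% of the pair in knockout and 0.378 ± 0.141% in RAC1-positive lines (SD over lines, n = 3 each).

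The other enzymes with all knockout line means above the RAC1-positive ones were ALDOA, TPI1, PKM and GPI. TPI1, triose phosphate isomerase, averaged 1688 ± 198 TPM in knockout and 1314 ± 47.2 TPM in RAC1-positive lines, a log2(TPM + 1) difference of 0.36 ± 0.09 (limma adjusted p = 0.223). PKM, pyruvate kinase of the last step, averaged 299 ± 33.9 and 233 ± 23.3 TPM in knockout and RAC1-positive lines, with a difference of 0.36 and a limma adjusted p of 0.270, and GPI, glucose-6-phosphate isomerase, 114 ± 16.7 and 98.1 ± 3.87 TPM with an adjusted p of 0.496 (SD, n = 3 lines each). The libraries of these 3 genes overlapped between genotypes, and sgRAC1 clone 3 was the highest line for each.

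ALDOA, the muscle-type aldolase, averaged 27.6 ± 5.11 TPM in knockout and 17.3 ± 2.77 TPM in RAC1-positive lines (SD, n = 3 each), a log2(TPM + 1) difference of 0.79 ± 0.22 (limma adjusted p = 0.232). Single knockout libraries ran from 21.2 to 34.6 TPM and RAC1-positive ones from 5.22 to 27.2 TPM, the lowest being sgNTC clone 2 replicate 1, and the difference was 0.43 in batch 2 and 1.15 in batch 1. Its level is uncertain, since 42.3% of its exon bases belong also to AC093512.2 on the same strand and its pseudogenes together reached 91.0% of its TPM in 1 library.

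PFKP, the platelet-type phosphofructokinase, was the enzyme with all knockout line means below the RAC1-positive ones. It had 57.1 and 51.6 TPM in sgRAC1 clone 1, 51.6 and 69.9 in clone 2 and 49.6 and 72.6 in clone 3. Parental cells had 75.7 and 92.3 TPM, sgNTC clone 1 had 54.9 and 75.7 and sgNTC clone 2 had 67.7 and 81.3. The libraries overlapped in batch 1 and were apart in batch 2. The line means were 58.7 ± 3.82 and 74.6 ± 9.35 TPM in knockout and RAC1-positive lines (SD, n = 3 each), a log2(TPM + 1) difference of -0.34 ± 0.12 (limma adjusted p = 0.310 over lines and 0.231 over libraries with line as a random block). PFKP made up 72.3 ± 2.74% of phosphofructokinase TPM in knockout lines and 79.1 ± 1.91% in RAC1-positive lines (SD, n = 3 lines each), with PFKM, the muscle type, at 19.8 ± 2.76 against 17.3 ± 1.94 TPM and PFKL, the liver type, at 2.51 ± 0.676 against 2.22 ± 0.219 TPM. 

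The line means of the remaining enzymes overlapped between genotypes. GAPDH, the most abundant of the enzymes, averaged 2285 ± 88 and 2195 ± 73.6 TPM in knockout and RAC1-positive lines, and ENO1 1659 ± 128 and 1538 ± 103 TPM (SD, n = 3 lines each; limma adjusted p = 0.698 and 0.596). HK1, the ubiquitous hexokinase of the first step, averaged 16.2 ± 2.58 and 14.1 ± 1.97 TPM in knockout and RAC1-positive lines, and HK2, the inducible form, 3.20 ± 0.33 and 3.35 ± 0.56 TPM (SD, n = 3 lines each). PGAM1, phosphoglycerate mutase, averaged 485 ± 88.6 and 542 ± 66.8 TPM in knockout and RAC1-positive lines (SD, n = 3 each), with a log2(TPM + 1) difference of -0.19 ± 0.15. The related gene PGAM4 had 39.4 to 106 TPM in knockout and 46.8 to 123 TPM in RAC1-positive libraries, with a difference of -0.18 ± 0.24. Whether PGAM1 and PGAM4 shared reads was not tested, here or in the batch comparison.

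**Figure D2:**
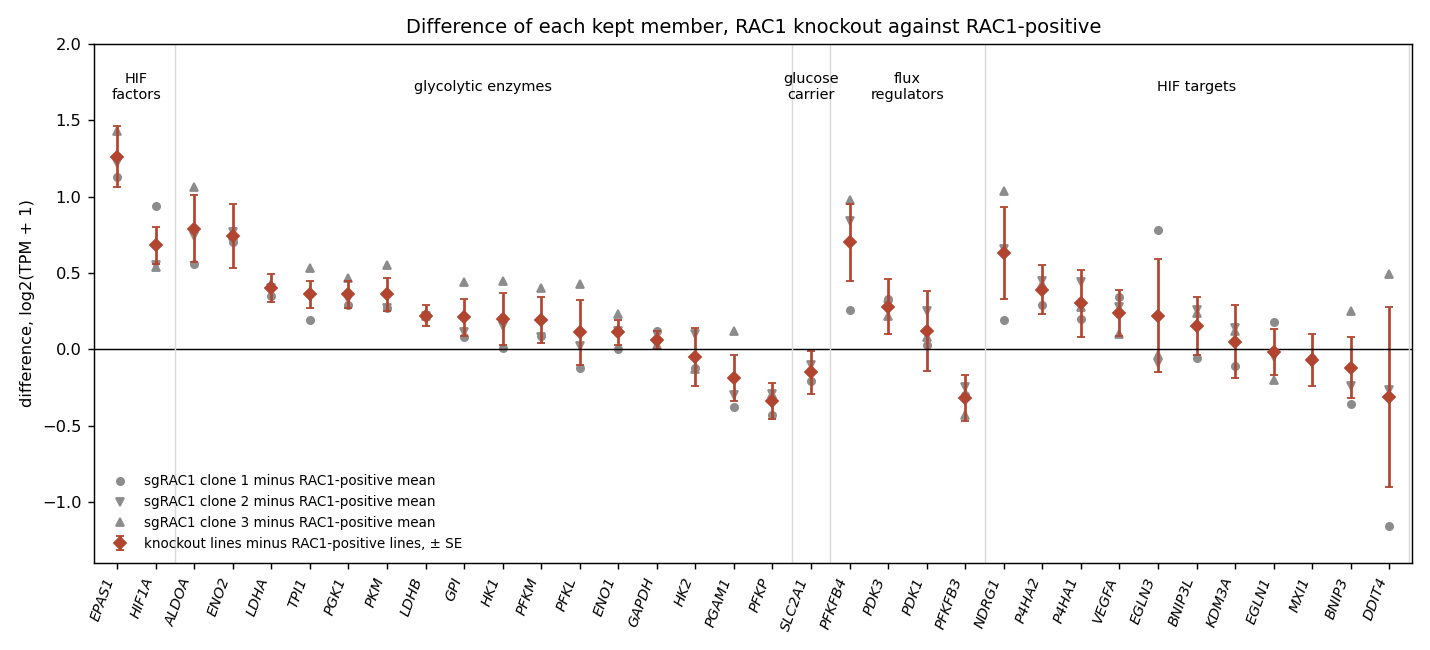
Difference in log2(TPM + 1) between the mean of 3 knockout lines and the mean of 3 RAC1-positive lines for the 34 genes above the level filter (red diamonds, bars ± SE of the limma fit), grouped by role, with each sgRAC1 clone minus the RAC1-positive mean in grey. EPAS1 stands highest at 1.26, most enzymes lie between 0 and 0.79, PFKP and PFKFB3 lie below 0 at -0.34 and -0.32, and DDIT4 has the widest bar.

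Carriers were sparse. SLC2A1 (GLUT1, the basal glucose carrier) was the 1 carrier above the filter and averaged 17.2 ± 0.668 TPM in knockout and 19.4 ± 3.16 TPM in RAC1-positive lines (SD, n = 3 each; log2(TPM + 1) difference -0.15 ± 0.14, limma adjusted p = 0.689). Its libraries overlapped, at 14.5 to 18.5 TPM against 14.4 to 24.5 TPM. SLC2A3 (GLUT3) reached at most 0.498 TPM in knockout and 0.280 TPM in RAC1-positive libraries, and SLC16A3 (MCT4, a lactate exporter) at most 0.810 and 1.10 TPM.

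Of the flux regulators, PFKFB4 and PFKFB3 make or remove fructose 2,6-bisphosphate, the main activator of phosphofructokinase. PFKFB4 had 1.34 and 2.31 TPM in sgRAC1 clone 1, 2.34 and 4.18 in clone 2 and 3.82 and 3.37 in clone 3. Parental cells had 0.956 and 1.37 TPM, sgNTC clone 1 had 1.58 and 0.987 and sgNTC clone 2 had 0.837 and 2.56. The lines were apart and the libraries overlapped (log2(TPM + 1) difference 0.70 ± 0.25, limma adjusted p = 0.312). PFKFB3 averaged 4.99 ± 0.222 TPM in knockout and 6.46 ± 0.861 TPM in RAC1-positive lines (SD, n = 3 each), a difference of -0.32 ± 0.15 (limma adjusted p = 0.418), and the difference was -0.07 in batch 2 and -0.58 in batch 1. In sgNTC clone 2 replicate 1, the library that stood apart, PFKFB3 was at 9.20 TPM.

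PDK1 and PDK3 encode kinases that switch off pyruvate dehydrogenase. PDK3 averaged 2.58 ± 0.125 and 1.94 ± 0.259 TPM in knockout and RAC1-positive lines, with the lines apart (limma adjusted p = 0.556), and PDK1 3.46 ± 0.325 and 3.33 ± 1.59 TPM (SD, n = 3 lines each; adjusted p = 0.865). The PDK1 difference was 0.36 in batch 2 and -0.12 in batch 1 on the log2(TPM + 1) scale.

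Of the 14 HIF targets, 11 passed the filter, with a median log2(TPM + 1) difference of 0.15, 7 higher and 4 lower in knockout lines. The knockout line means lay above the RAC1-positive ones for NDRG1, P4HA2 and VEGFA (3 of 11, beside 12% of all genes), and for no target did they all lie below (8.52% of all genes). P4HA2, a collagen prolyl hydroxylase, had 12 and 13.4 TPM in sgRAC1 clone 1, 13.7 and 14.7 in clone 2 and 12.8 and 15.2 in clone 3. Parental cells had 9.27 and 11.3 TPM, sgNTC clone 1 had 8.92 and 7.90 and sgNTC clone 2 had 13.8 and 10.5. The overlap came from sgNTC clone 2 replicate 1 (log2(TPM + 1) difference 0.39 ± 0.16, limma adjusted p = 0.363 over lines and 0.148 over libraries with line as a random block).

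NDRG1, a stress-responsive gene linked to differentiation, was low, with 0.604 and 0.652 TPM in sgRAC1 clone 1, 1.11 and 1.42 in clone 2 and 1.94 and 1.95 in clone 3. Parental cells had 0.832 and 0.197 TPM, sgNTC clone 1 had 0.613 and 0.482 and sgNTC clone 2 had 0 and 0.637. Clones 2 and 3 lay above every RAC1-positive library and clone 1 did not. The log2(TPM + 1) difference was 0.63 ± 0.30 (limma adjusted p = 0.419). VEGFA, the angiogenic growth factor, averaged 5.10 ± 0.518 TPM in knockout and 4.17 ± 0.0415 TPM in RAC1-positive lines (SD, n = 3 each; adjusted p = 0.548).

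EGLN1 and EGLN3 encode the oxygen-sensing hydroxylases that act on HIF. EGLN1 averaged 25.2 ± 3.5 TPM in knockout and 25.9 ± 3.54 TPM in RAC1-positive lines (SD, n = 3 each). EGLN3 had 2.6 and 2.96 TPM in sgRAC1 clone 1, 0.856 and 1.32 in clone 2 and 1.25 and 1.04 in clone 3, against 0.573 to 1.28 TPM in 5 RAC1-positive libraries and 4.17 TPM in sgNTC clone 2 replicate 1. Clone 1 thus differed from the other two knockout clones, at a log2(TPM + 1) difference of 0.78 from the RAC1-positive mean, against -0.09 for clone 2 and -0.04 for clone 3 (differences between clones were not tested).

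BNIP3 and BNIP3L, mitophagy receptors, had overlapping line means. BNIP3 averaged 109 ± 26.4 and 111 ± 21.5 TPM in knockout and RAC1-positive lines, and BNIP3L 185 ± 22.2 and 172 ± 43.7 TPM (SD, n = 3 lines each; limma adjusted p = 0.828 and 0.759). P4HA1, the other catalytic subunit isoform beside P4HA2, averaged 176 ± 14.7 and 148 ± 52 TPM in knockout and RAC1-positive lines, KDM3A, a histone demethylase, 5.89 ± 0.679 and 5.89 ± 2.37 TPM, and MXI1, a MYC antagonist, 8.58 ± 0.0942 and 9.61 ± 2.79 TPM (SD, n = 3 lines each). In all 5 RAC1-positive libraries other than sgNTC clone 2 replicate 1, MXI1 was at 6.80 to 8.89 TPM, and it was at 18.9 TPM in that library. CA9, the tumour hypoxia marker, was at 0 in every library except parental replicate 2 (0.387 TPM), ADM reached at most 1.51 TPM in knockout and 0.384 TPM in RAC1-positive libraries, and ANKRD37 at most 1.33 and 0.501 TPM.

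Over all 34 genes kept, limma called none at line level (0.00576% of 17367 genes were called), and 12 of 34 (35.3%) had an unadjusted p under 0.05, beside 2256 genes or 13% of all. With the 12 libraries as the unit and line as a random block, 4 of the 34 were called, all higher in knockout (EPAS1, LDHA, PGK1 and ENO2, 11.8%), beside 369 genes or 2.12% of all and 1.69% called in that direction. With the replicate block as well, EPAS1, LDHA and PGK1 were called, beside 320 genes or 1.84% of all and 1.42% in that direction. Without sgNTC clone 2 replicate 1, the library that stood apart, that fit with the replicate block called 6 of the 34 (EPAS1, LDHA, PGK1, ENO2, HIF1A with an adjusted p of 0.0371 and P4HA2 with 0.0384), beside 503 genes or 2.9% of all, a choice made after seeing the data. Over the alternatives tried, the limma adjusted p ran from 0.0032 to 0.404 for EPAS1, 0.016 to 0.641 for LDHA, 0.0176 to 0.684 for PGK1 and 0.0185 to 0.676 for ENO2. The estimated correlation between the libraries of a line was -0.03 (0.02 with the replicate block), so these fits treat the 2 libraries of a line as separate samples, 6 against 6, although each genotype has 3 lines.

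The lines of the 2 genotypes were apart for 17 of the 34 genes, 15 with the knockout lines higher and 2 with them lower, beside 3557 genes or 20.5% of all (12% higher and 8.52% lower). Single libraries were apart in the higher direction for 5 genes (14.7%), beside 372 genes or 2.14% of all, and in the lower direction for none, beside 0.714% of all. The 34 had a median log2(TPM + 1) difference of 0.21, and 25 of them (73.5%) were higher in knockout, beside a median of 0.02 and 53.3% over all genes. By line, the median over the 34 against the RAC1-positive mean was 0.15, 0.18 and 0.27 in sgRAC1 clones 1, 2 and 3. It was 0.05 in parental cells, -0.12 in sgNTC clone 1 and 0.04 in sgNTC clone 2. Batch 1 alone left 6 genes with lines apart and batch 2 alone left 17. The share of all genes with lines apart is not given for a single batch, so these counts have no background beside them.

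The authors' deposited table compares the genotypes for 35 of the 40 genes, and since its log2 fold change for RAC1 is -1.90 a positive value was read as higher in knockout. Of the 35, the authors' deposited table called 10 at an adjusted p under 0.05 (28.6%), beside 1474 of 15140 genes or 9.74%. The 9 higher ones were EPAS1, HIF1A, LDHA, LDHB, PGK1, ENO2, P4HA2, PFKFB4 and NDRG1, beside 5.68% of all genes in the authors' deposited table, and the 1 lower was PFKP, beside 4.06%. Its log2 fold changes were 1.48 for EPAS1 (adjusted p = 9.46e-12), 0.39 for LDHA (adjusted p = 2.16e-07), 0.69 for HIF1A (adjusted p = 0.000162) and -0.36 for PFKP (adjusted p = 0.018), all as in the authors' deposited table. The sources used here do not say how the authors modelled the 2 libraries of a line.

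**Figure D3:**
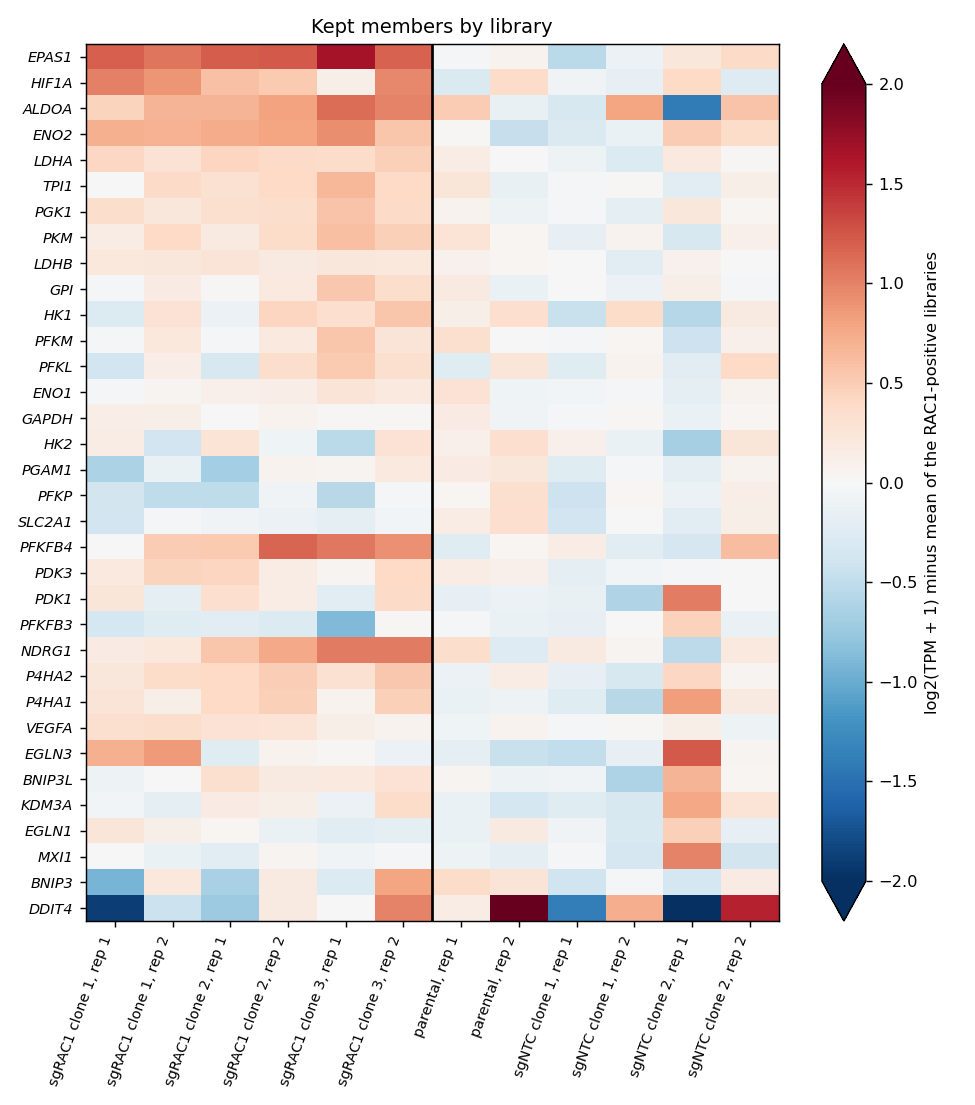
Heat map of 34 genes (rows, by role and by difference) in 12 libraries (columns, knockout clones left of the line and RAC1-positive lines right of it), coloured by log2(TPM + 1) minus the mean of the RAC1-positive libraries, with the colour scale ending at -2 and 2. The upper rows (EPAS1 to LDHB) are red throughout the knockout libraries apart from TPI1 in sgRAC1 clone 1 replicate 1. The column of sgNTC clone 2 replicate 1 is red for PDK1, P4HA1, EGLN3 and MXI1. It is blue for ALDOA and for DDIT4, which was at 0 TPM there.

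Each knockout clone was also set against the RAC1-positive lines in a fit of all 12 libraries, whose p-values rest on how far the paired libraries of each line differed. These 3 comparisons share the RAC1-positive libraries. EPAS1 was the member called, in sgRAC1 clone 3 (log2(TPM + 1) difference 1.43 ± 0.20, limma adjusted p = 0.0146), beside 188 genes or 1.08% of all. In clone 1 the EPAS1 difference was 1.13 (adjusted p = 0.0558), and limma called 84 genes or 0.484% and no member. In clone 2 it was 1.22 (adjusted p = 0.0749), and limma called 34 genes or 0.196% and no member. At an unadjusted p under 0.05 there were 7 members in clone 1 (9.1% of all genes), 9 in clone 2 (7.41%) and 11 in clone 3 (12.4%). The call in clone 3 was lost without clone 3 replicate 1 and without parental replicate 2. Without sgNTC clone 2 replicate 2, the EPAS1 difference was 1.16 in clone 1, 1.25 in clone 2 and 1.45 in clone 3, and the PKM difference in clone 3 was 0.62. That fit left sgNTC clone 2 with replicate 1 alone, the library that stood apart.

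The clones did not share all their values. HIF1A stood highest in clone 1, at a log2(TPM + 1) difference of 0.94, against 0.55 in clone 2 and 0.54 in clone 3, while NDRG1 stood highest in clone 3, at 1.04, against 0.19 in clone 1 and 0.66 in clone 2. The enzymes had median differences of 0.11, 0.13 and 0.43 in clones 1, 2 and 3. LDHA was at 0.35, 0.40 and 0.43 in clones 1, 2 and 3.

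The 2 batches of the same 6 lines gave a second comparison, paired by line. DDIT4, an inhibitor of mTORC1 that responds to hypoxia and other stresses, had 6.02 and 1.55 TPM (batch 2, then batch 1) in sgRAC1 clone 1, 9.74 and 4.73 in clone 2 and 17.9 and 8.35 in clone 3. In the RAC1-positive lines it had 42.4 and 9.50 TPM in parental cells, 14.6 and 2.63 in sgNTC clone 1 and 26.6 and 0 in sgNTC clone 2. All 6 lines were higher in batch 2, with means of 19.6 ± 13.2 TPM in batch 2 and 4.46 ± 3.8 TPM in batch 1 (SD, n = 6 lines), a log2(TPM + 1) difference of 2.05 ± 0.48 (limma adjusted p = 0.248). In the annotation 41.2% of DDIT4 exon bases overlap DDIT4-AS1 on the opposite strand, and the strand setting of the counting is not known.

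HK1 was higher in batch 2 in all 6 lines, at 17.9 ± 1.66 TPM in batch 2 and 12.5 ± 3.29 TPM in batch 1 (SD, n = 6 lines; log2(TPM + 1) difference 0.52 ± 0.12, limma adjusted p = 0.248), and so was PGAM1, at 565 ± 52 TPM in batch 2 and 462 ± 109 TPM in batch 1 (0.32 ± 0.10, adjusted p = 0.440). BNIP3 was higher in 5 of the 6 lines, at 133 ± 28.6 TPM in batch 2 and 87.5 ± 28.8 TPM in batch 1 (SD, n = 6 lines; 0.63 ± 0.17, limma adjusted p = 0.334). None of the 34 genes was called (0.0115% of all genes were called, and 5 of the 34 had an unadjusted p under 0.05, beside 1421 genes or 8.18% of all). All 6 lines were higher in batch 2 for 3 of the 34 genes (8.82%), beside 753 genes or 4.34% of all, and lower for none, beside 1.21% of all. The median of the 34 was 0.03 in this comparison and that of all genes 0.04.

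**Figure D4:**
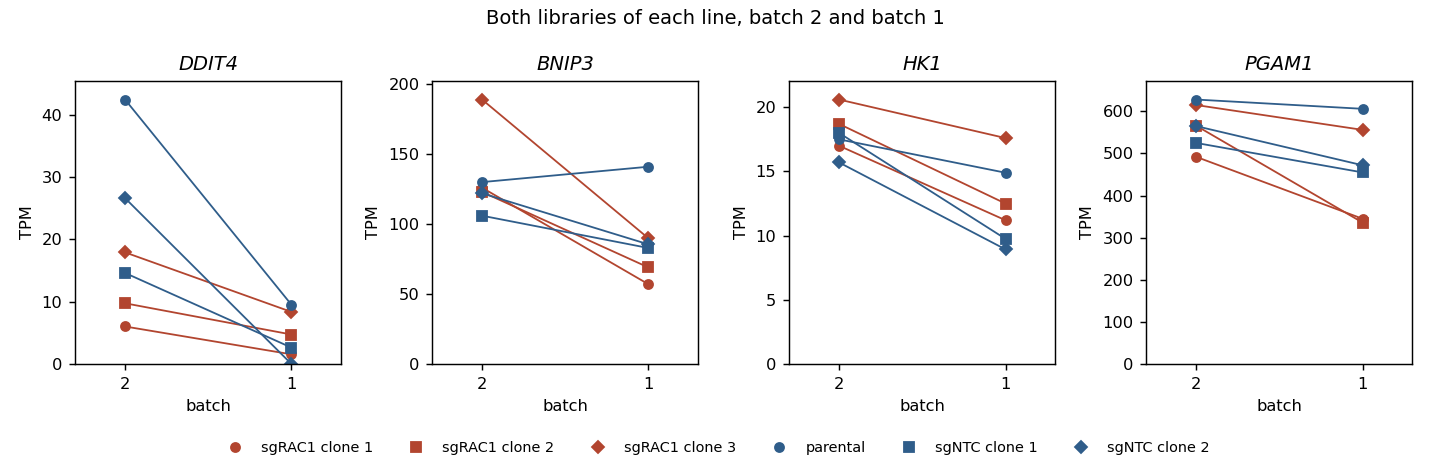
Level in TPM of DDIT4, BNIP3, HK1 and PGAM1 in batch 2 (left) and batch 1 (right) of each of 6 lines, joined by a line, with knockout clones in red and RAC1-positive lines in blue. DDIT4, HK1 and PGAM1 slope down to batch 1 in all 6 lines, and BNIP3 does so in 5, the exception being the parental cells.

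The genotype difference of BNIP3 and DDIT4 took opposite signs in the batches. BNIP3 was 0.26 higher in knockout lines in batch 2 and lower, at -0.49, in batch 1 on the log2(TPM + 1) scale, and DDIT4 was lower in knockout lines in batch 2, at -1.24, and higher in batch 1, at 0.61. The batch 1 value of DDIT4 includes sgNTC clone 2 replicate 1, the library that stood apart, at 0 TPM. In batch 1 the other RAC1-positive libraries had 9.5 and 2.63 TPM of DDIT4, and the knockout libraries had 1.55, 4.73 and 8.35 TPM. The change of the genotype difference between batches gave no call among 17367 genes (0%), and 757 genes (4.36%), 3 of them members, had an unadjusted p under 0.05. For BNIP3 and DDIT4 the limma adjusted p of that change was 0.904. EPAS1, HIF1A, LDHA, LDHB, PGK1 and ENO2 were higher in knockout lines in both batches.

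Further lists of the same pathway were counted beside the 40 genes. Of 30 further HIF targets above the filter, 22 were higher and 8 lower in knockout lines, with a median log2(TPM + 1) difference of 0.27; lines were apart for 12, all higher (12% of all genes were apart in that direction), and the fit over libraries with line as a random block called 1, TFRC (1.69% of all genes were called higher). TFRC, the transferrin receptor, had 405 and 260 TPM in sgRAC1 clone 1, 442 and 388 in clone 2 and 223 and 416 in clone 3. Parental cells had 137 and 224 TPM, sgNTC clone 1 had 236 and 180 and sgNTC clone 2 had 207 and 142 (limma adjusted p = 0.143 over lines and 0.0296 over libraries). The authors' deposited table called 7 of 32 further HIF targets higher and 0 lower, beside 5.68% and 4.06% of all genes. STC2, stanniocalcin 2, a secreted glycoprotein, averaged 9.94 ± 1.21 TPM in knockout and 5.94 ± 1.27 TPM in RAC1-positive lines (SD, n = 3 each; adjusted p = 0.232).

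Of 12 genes of the HIF machinery above the filter, 9 were higher and 3 lower in knockout lines, with a median of 0.11. SIAH1, a ubiquitin ligase that acts on EGLN proteins, averaged 6.50 ± 0.889 and 4.37 ± 0.22 TPM in knockout and RAC1-positive lines (limma adjusted p = 0.285), and CITED2, a competitor of HIF for its coactivator, 13.9 ± 4.27 and 9.89 ± 2.66 TPM (SD, n = 3 lines each; adjusted p = 0.446). ARNT, the HIF partner, averaged 22.0 ± 1.5 and 21.0 ± 1.42 TPM in knockout and RAC1-positive lines, and VHL 6.48 ± 0.775 and 7.19 ± 0.862 TPM (SD, n = 3 lines each).

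Other glycolysis isoforms showed 4 higher and 5 lower of 9 above the filter, with a median of -0.01, and the smallest p belonged to PGM2, a phosphoglucomutase, at 82.9 ± 8.85 TPM in knockout and 103 ± 6.01 TPM in RAC1-positive lines, and BPGM, which makes 2,3-bisphosphoglycerate, at 54.4 ± 3.52 and 46.9 ± 0.995 TPM (SD, n = 3 lines each; limma adjusted p = 0.318 and 0.411). Of 14 genes of pyruvate and lactate handling, 8 were higher and 6 lower, with a median of 0.04. DLAT, the acetyltransferase of pyruvate dehydrogenase, averaged 74.2 ± 3.63 TPM in knockout and 91.9 ± 5.16 TPM in RAC1-positive lines, and SLC16A1 (MCT1, a lactate carrier) 97.3 ± 7.45 and 80.5 ± 8.52 TPM (SD, n = 3 lines each; limma adjusted p = 0.260 and 0.329). Of 4 other hexose carriers, 2 were higher and 2 lower, with a median of -0.06, and those with the smallest p were SLC2A10, at 1.24 ± 0.641 TPM in knockout and 0.677 ± 0.191 TPM in RAC1-positive lines, and SLC2A8, at 7.43 ± 0.168 and 8.30 ± 0.878 TPM (SD, n = 3 lines each; limma adjusted p = 0.574 and 0.681). No gene of these lists was called at line level.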

How the data were processed

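RNA was extracted with TRIzol and purified on columns, and 160 ng went into each library (SMARTScribe reverse transcription, Advantage 2 amplification, tagmentation), per the labels' protocols. STAR 2.6.1d, bcl2fastq and DESeq2 are the tools, and GRCh38 the build, in the submitters' processing notes. Of the counting tool and strand setting, the sources used here say nothing. The authors deposited TPM per gene and library, and each library sums to 1000000, so depth is unknown and no counting interval can be given. For 15140 genes the authors deposited a comparison with a mean normalized signal, a log2 fold change, a Wald score and a p-value, per the file headers.

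From TPM, log2(TPM + 1) was averaged over the libraries of a line and compared by limma 3.58.1 in R 4.3.3, with variances following mean expression and Benjamini-Hochberg adjustment at 0.05. The level filter kept 17367 genes whose mean reached 1 TPM in 1 genotype or both, 34 members among them. Clone and batch comparisons used the same scale, and the fits were tested on simulated data. Those data held no spread between lines beyond that between libraries, so that test cannot show how the fits handle clonal differences. Positions came from GENCODE release 29 and promoters from RefSeq. The members, lists and tests were chosen with earlier results of these data known. Every member was named, and of further lists the genes called at line level, otherwise the 2 with the smallest p of that fit. ARNT, VHL and PGAM4 were chosen after their values were seen. Replicate numbers mark the batch per the labels and so pair the samples. Over 15 pairs of lines, same-numbered deviations correlated at -0.13 to 0.3 (median 0.026, 2 over 0.1), and a paired fit (replicate block) stood beside the genotype and clone results. The labels call the replicates biological, and no 2 libraries were identical.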

Additional observations from a re-analysis of the deposited data

Results flagged for a closer look

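Of 70 groups of 6 libraries checked, 6 held a library far from the other 5, where chance flags about 1 in 20. In sgNTC clone 2 replicate 1, the library with the fewest genes above 0, PDK1 was at 7.22 TPM, PFKFB3 at 9.20 TPM, EGLN3 at 4.17 TPM and MXI1 at 18.9 TPM, while the other RAC1-positive libraries were at 1.66 to 3.05 TPM, 5.61 to 6.30 TPM, 0.573 to 1.28 TPM and 6.80 to 8.89 TPM for these genes. LDHB was at 971 TPM in sgNTC clone 1 replicate 2 and at 1112 to 1197 TPM in the other RAC1-positive libraries. EPAS1 was at 13.1 TPM in sgRAC1 clone 3 replicate 1 and at 8.31 to 9.40 TPM in the other knockout libraries. The part of these libraries in the genotype differences is given by the values without them: leaving out sgRAC1 clone 3 replicate 1 or any other single library or line kept the EPAS1 difference between 1.10 and 1.41 and the LDHB difference between 0.17 and 0.26 on the log2(TPM + 1) scale.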

How the results depend on the processing

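Genes called between knockout and RAC1-positive lines numbered 1. The number was 0 under median-of-ratios or upper quartile scaling, no level filter, a pseudocount of 0.1 or batch 1 alone, 2 with a pseudocount of 5, 3 with a filter of 5 TPM, 26 in batch 2 alone, and 0 to 22 with a line or library left out. Over 12 libraries with line as a random block it was 369, with the replicate block 320, and, in an alternative chosen after seeing the data, 503 without sgNTC clone 2 replicate 1. Members called were 0, against 4, 3 and 6 in these 3 fits, and the 6 were EPAS1, ENO2, HIF1A, LDHA, P4HA2 and PGK1. The members' median was 0.29 in batch 2 alone and 0.10 to 0.26 with a line or library left out, lowest without sgRAC1 clone 3. Members with lines apart numbered 6 in batch 1 alone and 12 to 22 with a line or library left out. The shares of all genes in these settings are not given, and with a line left out fewer lines have to be apart.

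Directions turned for 10 members, none of them called. DDIT4 (-0.31) was 0.12 with a pseudocount of 0.1, 0.61 in batch 1 alone and -1.11 to 0.49 with a line or library left out. Its batch 1 value includes sgNTC clone 2 replicate 1, where DDIT4 was at 0 TPM. In batch 1 alone HK2 was 0.11, PDK1 -0.12, BNIP3L -0.08, EGLN3 -0.03 and KDM3A -0.14, and in batch 2 alone BNIP3 was 0.26, EGLN1 0.03 and MXI1 0.25. With a line or library left out, HK2 ran from -0.20 to 0.10, PDK1 from -0.07 to 0.37, BNIP3L from -0.03 to 0.33, EGLN3 from -0.06 to 0.54, KDM3A from -0.09 to 0.31, BNIP3 from -0.30 to 0.07, EGLN1 from -0.13 to 0.08, MXI1 from -0.29 to 0.16 and PFKL from -0.05 to 0.22. Without sgNTC clone 2 replicate 1 and with the replicate block, EGLN1 was 0.07 and MXI1 0.13. The cause was not tested.

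With a library left out, genes called ran from 17 to 309 in sgRAC1 clone 1, 12 to 202 in clone 2 and 18 to 706 in clone 3, and members called from 0 to 1, 0 to 1 and 0 to 2. A line left with 1 library is assumed to vary like the others. In clone 2 the number was 10 with a pseudocount of 0.1 and 18 with the replicate block. Between batches, 0 genes were called under median-of-ratios scaling, in the knockout lines alone, in the RAC1-positive lines alone and with any line left out (0 to 0). The replicate block changed the call of no other member than ENO2. Without counts, low genes such as NDRG1 and EGLN3 have no known counting error.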
